A study of Mus musculus with 2 samples.

Results

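The pore-forming alpha-1 subunits of voltage-gated calcium channels expressed in brain were followed through the anatomy of 2 mouse brain sections. The 8 members (Cacna1a, Cacna1b, Cacna1c, Cacna1d, Cacna1e, Cacna1g, Cacna1h and Cacna1i) were taken by gene symbol from the 32285 genes listed, and all 8 were measured and passed the filter on low counts. RNA was captured with 10x Visium, in which a slide carries barcoded capture spots under the tissue, and every spot reports the polyadenylated transcripts of the several cells above it. Both samples belong to 1 group: wild-type C57BL/6 mouse brain, fresh frozen, cut at 10 µm and labelled ZT12 and replicates 1 and 2, here called sections 1 and 2. C57BL/6 is a common inbred strain, and ZT usually stands for zeitgeber time, counted in hours from lights on. The series asks how brain regions differ, so the comparisons are between regions of the same sections. The labels do not state that the sections came from different animals. A shift between sections that all groups share was taken out before testing. The p-values therefore measure only how far differences between groups varied between these 2 sections, and that spread may be technical or anatomical.

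The alpha-1 subunit forms the pore and the voltage sensor of a calcium channel and sets its type. Cacna1c and Cacna1d encode Cav1.2 and Cav1.3, the neuronal L-type channels, which open on depolarisation for long enough to couple calcium entry to signalling in the soma and dendrites. Cacna1a (P/Q-type, Cav2.1) and Cacna1b (N-type, Cav2.2) supply the presynaptic calcium that triggers transmitter release, and Cacna1e encodes the R-type channel Cav2.3. Cacna1g, Cacna1h and Cacna1i encode the T-type channels Cav3.1, Cav3.2 and Cav3.3, which open near the resting potential and support burst firing, the activity pattern for which thalamic neurons are best known.

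On GRCm38.p6 the 8 genes lie on 8 different chromosomes, so none shares a locus with another. The L-type genes are Cacna1c on chromosome 6 (118587240 to 119197384) and Cacna1d on chromosome 14 (30039941 to 30491156). Cacna1a lies on chromosome 8 (84338631 to 84640251), Cacna1b on chromosome 2 (24603860 to 24763200) and Cacna1e on chromosome 1 (154390806 to 154884785). The T-type genes are Cacna1g on chromosome 11 (94408391 to 94474400), Cacna1h on chromosome 17 (25374285 to 25436334) and Cacna1i on chromosome 15 (80287238 to 80398292). These positions are of whole genes, exons and introns together.

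Section 1 had 3167 spots with 58662871 unique molecular identifiers (UMIs, each counting 1 captured RNA molecule) and section 2 had 2533 spots with 55851559 UMIs. Spots with at least 500 UMIs were kept (3030 and 2531), with medians of 18127 and 21555 UMIs. Each kept spot was assigned to the list of anatomical markers that stood highest in it, or to no group where no list stood clearly above the next. The 19 lists held 110 marker genes, which were left out of the tests. Of 5561 kept spots 3826 fell into a group, and 1011 of all kept spots lay close to the margin that decided it. Spots were assigned by expression alone, the groups are named after their lists, and a spot can hold cells of other types. UMIs were summed over the spots of a group within a section, which gave 32 sums of 271069 to 6310406 UMIs for the 16 groups found in both sections. Levels are given in CPM, a gene's UMIs divided by all UMIs of its sum and put on one common scale. A level in such sums cannot tell fewer expressing cells apart from less RNA per cell.

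In all 16 groups most markers of a list were highest in the group named after it, at the fewest 4 of 6 for cortex layer 6 in section 2. The same markers had assigned the spots, so these counts do not test the names. The olfactory bulb list was weak in level. Its markers reached only 6.27 to 35.1 CPM in section 1 and 7.78 to 36.1 CPM in section 2, and only 4 of 13105 tested genes differed from the other groups (0.0305%). The data therefore do not bear out that name, and the group is called the olfactory bulb list group. The striatum group of section 1 had only 35 spots, with a median of 7674 UMIs, so its levels in that section are the least precise. In section 2 it had 201 spots. The hypothalamus group had 82 and 234 spots, the midbrain dopamine group 102 and 25, and the cerebellar granule layer group 115 and 0. The sections thus did not hold the same regions in equal parts, and a group may hold different tissue in each. Between 30.7% and 31.7% of the kept spots of a section were in no group.

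All 8 members were detected throughout both sections, with regional differences of a few fold. Summed over all kept spots, Cacna1e had 4795 UMIs in section 1 and 5267 UMIs in section 2, at least 1 of them in 63.6% and 76.4% of spots. The smallest counts were those of Cacna1d, with 1169 and 1164 UMIs, found in 29.2% and 34.7% of spots. These totals are counts of captured UMIs and are not read as a ranking of expression between genes. Within a gene, the highest group exceeded the lowest by 3.33-fold (Cacna1a) to 9.20-fold (Cacna1h) in section 1. In section 2 it did so by 2.61-fold (Cacna1i) to 3.80-fold (Cacna1h). The 9.20-fold is imprecise, since its lowest group, the choroid plexus, had 5 UMIs of Cacna1h in section 1 (7.97 CPM, exact Poisson 95% interval 2.59 to 18.6 CPM). The order of the 16 groups was alike in both sections for Cacna1h (Spearman's rho 0.93), Cacna1e (0.90), Cacna1i (0.80) and Cacna1a (0.79), and least alike for Cacna1b (0.54). These rank correlations are descriptions over groups that share a section and an assay.

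The clearest differences were in the thalamus and dentate gyrus groups. The thalamus group was high in Cacna1g and Cacna1c and low in Cacna1e, Cacna1h and Cacna1i. Cacna1a was also called higher there, by 1.30-fold, a call lost with scaling to pan-neuronal markers and without section 2 of the group. The dentate gyrus group was high in Cacna1h, Cacna1e, Cacna1d and Cacna1c. Of the 16 groups, CA3 had the highest Cacna1a. Cacna1i was called higher in the cortex layer 5 group and in the parvalbumin and GABA group, and both calls rested on 1 section. Each statement rests on edgeR's quasi-likelihood test of 1 group against the mean of the other 15, with Benjamini-Hochberg adjustment over 13105 genes, and a gene is called at an adjusted p under 0.05. The comparisons share all their sums and are not independent of each other.

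**Figure D1:**
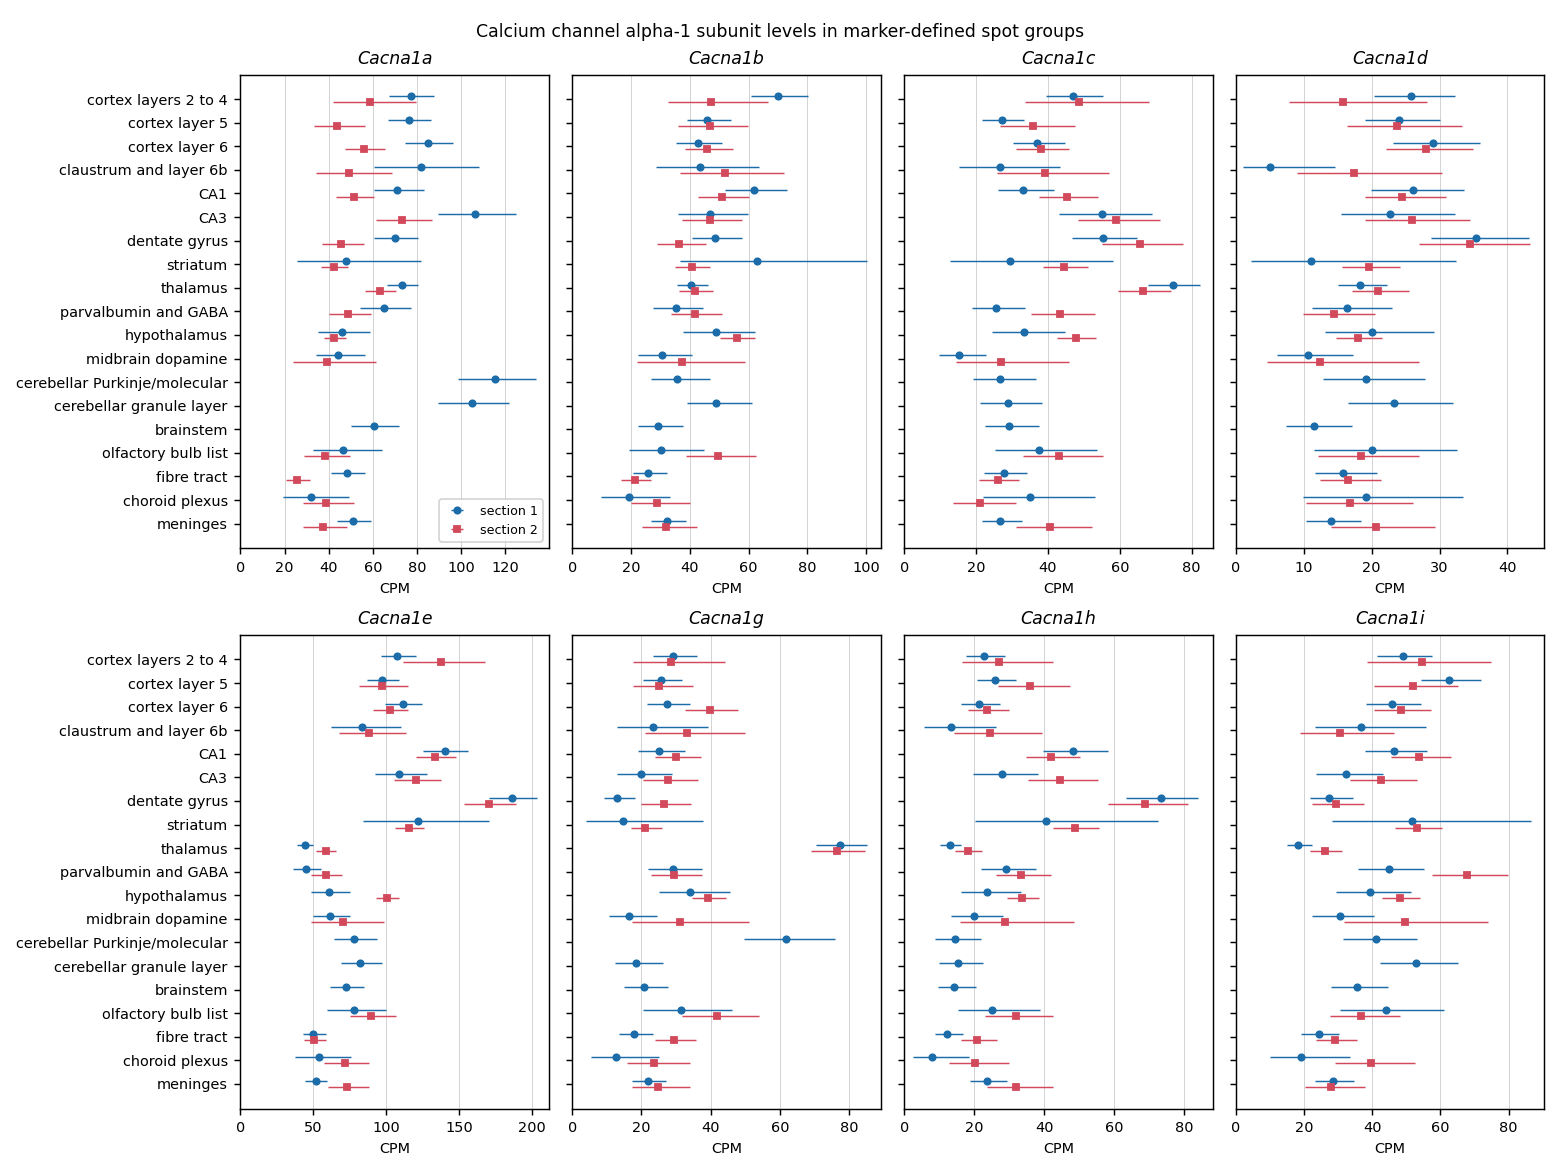
Levels of the 8 alpha-1 subunits (horizontal axes, CPM, each with its own scale) in 19 marker-defined spot groups (rows), in section 1 (circles) and section 2 (squares), with bars for exact Poisson 95% intervals that cover counting error only. Cacna1g and Cacna1c peak in the thalamus row (77.5 and 74.7 CPM in section 1), Cacna1d, Cacna1e and Cacna1h in the dentate gyrus row, and Cacna1a lies further right in section 1 than in section 2 in 15 of the 16 groups found in both.

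Over the 16 groups, 25 of 128 gene tests were called higher and 19 lower. Calls among all 13105 tested genes differed widely between groups. They ran from 4 higher and 0 lower (olfactory bulb list group) to 2238 higher and 1911 lower (fibre tract group). Each group's count is therefore set beside its own share of all genes. In the thalamus group 3 of 8 members were called higher and 3 lower, where 11.3% of all tested genes were called higher and 9.71% lower. In the dentate gyrus group 4 members were higher and 2 lower, where 11.1% of all genes were higher and 9.17% lower. These were the groups with the most calls in both directions. In the CA1 group 4 members were higher (7.58% of all genes), and in the CA3 group 3 were higher (4.81%). The cortex layers 2 to 4 group and the cortex layer 6 group each had 3 members higher, where 8.07% and 7.87% of all genes were. In the cortex layer 5 group 1 member was higher (5.89%), and in the hypothalamus group also 1 (5.47%), which over 8 genes is near the background. The striatum group had 2 members higher (5.16%) and 1 lower (2.64%). The parvalbumin and GABA group had 1 higher (6.54%) and 1 lower (4.63%), and the midbrain dopamine group 1 lower (1.58%). Of the groups poor in neurons, the fibre tract group had 6 members lower (14.6% of all genes), the choroid plexus group 2 lower (6.23%) and the meninges group 3 lower (9.27%). In the claustrum and layer 6b group none of the 8 members was called, where 0.153% of all genes were called in either direction, and the same held for the olfactory bulb list group.

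**Figure D2:**
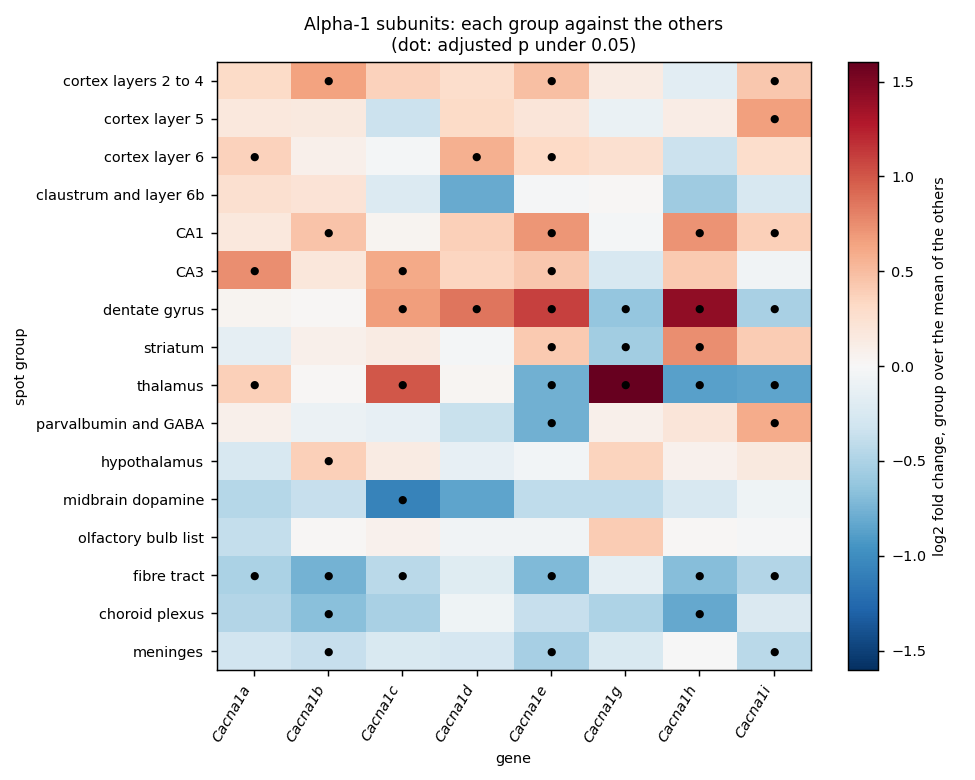
Log2 fold change of each alpha-1 subunit (columns) in each spot group (rows) over the mean of the other 15 groups, from red (higher) to blue (lower), with a dot where the adjusted p was under 0.05. The thalamus row holds the highest value, Cacna1g at 1.60, beside low values of Cacna1e, Cacna1h and Cacna1i. In the fibre tract row all 8 genes lie below 0 with total-UMI scaling, 6 of them with a dot. Scaled to pan-neuronal markers, which is not drawn here, Cacna1c (0.03), Cacna1d (0.27) and Cacna1g (0.30) are above 0 in that group. That scaling puts the median of all genes there at 0.46.

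Cacna1c, the L-type channel Cav1.2, was highest in the thalamus group in both sections. It stood there at 74.7 CPM (section 1) and 66.6 CPM (section 2), against averages of 34.1 and 41.7 CPM over the other 15 groups. No other group reached those levels within its section, although the dentate gyrus group came close in section 2, at 65.6 CPM. The log2 fold change of the thalamus group was 0.99 ± 0.10 (SE, n = 2 sections, edgeR adjusted p = 1.83e-10).

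The dentate gyrus and CA3 groups followed. In the dentate gyrus group Cacna1c stood at 55.2 and 65.6 CPM, against averages of 35.4 and 41.7 CPM in the others (log2 fold change 0.66 ± 0.13, edgeR adjusted p = 0.000101). In the CA3 group it stood at 54.9 and 58.9 CPM, against averages of 35.4 and 42.2 CPM (0.61 ± 0.15, edgeR adjusted p = 0.00603). That CA3 call was lost without section 1 of the group (edgeR adjusted p = 0.167) and without section 2 of it (0.108), and with scaling to pan-neuronal markers (0.162), under which the value was 0.27. That scaling put the median of all genes in the CA3 comparison at -0.36. Next in order was the cortex layers 2 to 4 group, at 46.9 and 48.7 CPM. The ranges over sections did not overlap between the thalamus and dentate gyrus groups, nor between CA3 and cortex layers 2 to 4, while those of the dentate gyrus and CA3 did.

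At the other end, Cacna1c had its lowest mean in the midbrain dopamine group. It had 15.2 and 26.9 CPM there, against averages of 38.1 and 44.3 CPM in the other groups (log2 fold change -1.07 ± 0.25, edgeR adjusted p = 0.00861). Section 2 of that group had only 25 spots. Without section 1 of the group, the value was -0.70 with an edgeR adjusted p of 0.792. The parvalbumin and GABA group was also set directly against the thalamus group. Cacna1c stood at 25.4 and 43.5 CPM in the parvalbumin and GABA group and at 74.7 and 66.6 CPM in the thalamus group, a log2 fold change of -1.05 ± 0.17 (edgeR adjusted p = 1.37e-05). In that contrast 2 members were higher and 2 lower, where 3.18% of all tested genes were higher and 4.56% lower.

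Cacna1d, the L-type channel Cav1.3 known for opening at more negative potentials than Cav1.2, was highest in the dentate gyrus group. Its levels there were 35.4 and 34.5 CPM, against averages of 18.5 and 19.5 CPM in the other groups, whose highest values were 29.0 CPM (section 1) and 27.9 CPM (section 2). Both of those maxima belonged to the cortex layer 6 group. The dentate gyrus group was higher by 0.86 ± 0.14 on the log2 scale (edgeR adjusted p = 1.12e-05), and its range over sections did not overlap that of cortex layer 6, which in turn did not overlap that of CA1. The cortex layer 6 call was just under 1.5-fold (1.48-fold). It was lost with scaling to pan-neuronal markers (0.26, edgeR adjusted p = 0.168), without section 1 of that group (0.229) and without section 2 of it (0.0502). The scaling to pan-neuronal markers put the median of all genes in the cortex layer 6 comparison at -0.32. The claustrum and layer 6b group had 5.01 CPM (3 UMIs) and 17.4 CPM (12 UMIs). That was the widest disagreement between sections for this gene, and the group was not called (edgeR adjusted p = 0.687). Cacna1d was called lower in none of the 16 groups.

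Both L-type genes thus stood high in the dentate gyrus group, and Cacna1c in the thalamus group. In the thalamus group Cacna1d had 18.3 and 21.0 CPM, close to the averages of the other groups, and was not called.

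Cacna1a, which encodes the P/Q-type channel Cav2.1, was highest in CA3 among the 16 groups, in both sections. It reached 106 and 73.3 CPM there, against averages of 61.0 and 45.4 CPM in the other 15 groups. The next groups were cortex layer 6 in section 1 (84.9 CPM) and the thalamus in section 2 (63.1 CPM). Both were also called higher, by 1.29-fold and 1.30-fold. These calls were lost with scaling to pan-neuronal markers (edgeR adjusted p = 0.710 and 0.143), where the medians of all genes were -0.32 and -0.21. On the log2 scale, the cortex layer 6 value was 0.27 without section 1 of that group. The thalamus value was 0.26 without section 2 of that group, and both calls were lost in those fits. The log2 fold change of CA3 was 0.75 ± 0.11 (edgeR adjusted p = 8.54e-06). CA3 also had the highest summed pan-neuronal markers (6626 CPM in section 1 and 6016 CPM in section 2). Scaled to those, the log2 fold change of Cacna1a was 0.41 (edgeR adjusted p = 0.00981) and the median of all genes was -0.36. Set directly against CA1, where Cacna1a had 71.2 and 51.3 CPM, CA3 was higher by 0.55 ± 0.15 (edgeR adjusted p = 0.0463), the only call among the 8 members in a contrast where 0.771% of all genes were called higher. That contrast was 1.46-fold, and the call was lost with scaling to pan-neuronal markers (0.29, edgeR adjusted p = 0.286). There the median of all genes was -0.26. The call was also lost without section 1 of CA3 (log2 fold change 0.50) and without section 2 of it (0.60).

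Cacna1a differed more between sections than any other member. Over all kept spots it had 67.9 CPM in section 1 and 46.6 CPM in section 2, and it was higher in section 1 in 15 of 16 groups. The file headers name different versions of the counting software for the sections, although the submitters' notes name the same one. If the versions differed, section and version cannot be told apart. Of the 15 pairs of groups that were neighbours in the order of Cacna1a, only 1 pair had ranges that did not overlap, where a range takes in the shift between sections.

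The cerebellum, where Cacna1a is known for its role in Purkinje and granule cells, was found in section 1 only and was not tested. Cacna1a had 115 CPM in the cerebellar Purkinje and molecular layer group (83 spots, exact Poisson 95% interval 98.5 to 134 CPM, counting error only). In the cerebellar granule layer group (115 spots) it had 105 CPM (89.7 to 122 CPM). Of the 19 groups in that section these ranked 1 and 3, with CA3 between them, and their intervals overlapped that of CA3.

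Cacna1b, the N-type channel Cav2.2, had a different highest group in each section. These were cortex layers 2 to 4 (70.0 CPM, section 1) and the hypothalamus (56.1 CPM, section 2). The cortex layers 2 to 4 group had 70.0 and 47.3 CPM, against averages of 41.0 and 41.8 CPM in the others (log2 fold change 0.65 ± 0.13, edgeR adjusted p = 0.000476). Section 1 carried that difference: without section 1 of the group it was 0.19 and was not called. It also missed the threshold with scaling to pan-neuronal markers (0.37, edgeR adjusted p = 0.0565), where the median of all genes was -0.27. The CA1 and hypothalamus groups were called higher by less than 1.5-fold, calls lost without section 1 of CA1 (edgeR adjusted p = 0.397) and without section 2 of the hypothalamus (0.752). The lowest mean was that of the fibre tract group, with 25.8 and 21.2 CPM, against averages of 43.9 and 43.6 CPM in the others (-0.76 ± 0.14, edgeR adjusted p = 2.29e-05). In the choroid plexus group Cacna1b had 19.1 and 28.7 CPM (-0.67 ± 0.22, edgeR adjusted p = 0.0277), a call lost without section 1 of that group (-0.49, edgeR adjusted p = 0.300) and without section 2 of it (-1.08, 0.0706).

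Cacna1e, the R-type channel Cav2.3, gave the most calls, 6 higher and 4 lower. It peaked in the dentate gyrus group at 187 and 170 CPM, against averages of 81.1 and 91.3 CPM over the other groups. That was 2.13-fold higher (log2 fold change 1.09 ± 0.09, edgeR adjusted p = 1.26e-12). The dentate gyrus group lay above the next group, CA1, in both sections.

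CA1 in turn had 140 and 134 CPM of Cacna1e, against averages of 84.2 and 93.7 CPM in the others (0.71 ± 0.09, edgeR adjusted p = 4.33e-07). The CA3, cortex layers 2 to 4, cortex layer 6 and striatum groups were also called higher, by 1.25-fold to 1.39-fold. With scaling to pan-neuronal markers the CA3, cortex layers 2 to 4 and cortex layer 6 calls were lost (edgeR adjusted p = 0.512, 0.123 and 0.950). That scaling put the medians of all genes in these comparisons at -0.36, -0.27 and -0.32. The CA3 call was also lost without section 1 (0.162) or section 2 (0.178) of that group, those of cortex layers 2 to 4 (0.339) and layer 6 (0.743) without section 1, and that of the striatum without section 2 (0.620). Against CA1, neither the dentate gyrus nor CA3 passed the test for this gene.

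The lowest levels of Cacna1e were found in the thalamus, parvalbumin and GABA, and fibre tract groups. The thalamus group had 44.2 and 58.6 CPM, against averages of 90.6 and 98.7 CPM in the others (-0.77 ± 0.10, edgeR adjusted p = 1.16e-07). The parvalbumin and GABA group had 44.8 and 58.4 CPM, against averages of 90.5 and 98.7 CPM (-0.77 ± 0.12, edgeR adjusted p = 2.67e-05). Summed pan-neuronal markers were 5547 and 5616 CPM in the thalamus group and 5431 and 5124 CPM in the parvalbumin and GABA group. The parvalbumin and GABA call was lost when spots were assigned with the even-numbered markers of each list only (-0.19, edgeR adjusted p = 0.609). The fibre tract group had 50.1 and 50.8 CPM (-0.71 ± 0.11, edgeR adjusted p = 2.49e-06), together with low pan-neuronal markers (3375 and 3579 CPM).

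Cacna1g, the T-type channel Cav3.1, showed the largest difference of any member. The thalamus group had 77.5 and 76.5 CPM, against averages of 22.8 and 30.1 CPM in the other 15 groups. Both sections agreed to within 1 CPM, and none of the other 15 groups exceeded 34.1 CPM in section 1 or 41.7 CPM in section 2. The thalamus group was 3.04-fold higher (log2 fold change 1.60 ± 0.09, edgeR adjusted p = 3.39e-17). Below the thalamus, the ranges of all 14 remaining pairs of neighbouring groups overlapped, so the order of the other groups was not resolved.

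In section 1 the cerebellar Purkinje and molecular layer group was second for Cacna1g, at 61.8 CPM (exact Poisson 95% interval 49.7 to 75.9 CPM), against 18.4 CPM in the cerebellar granule layer group (12.4 to 26.2 CPM). With 1 section there is no test of that difference. At the low end, the dentate gyrus group had 13.0 and 26.4 CPM of Cacna1g, against averages of 27.1 and 33.4 CPM in the others (-0.62 ± 0.17, edgeR adjusted p = 0.00529). That call rested on section 1, since without it the value was -0.26 and without section 2 it was -1.06. The call was also lost with scaling to pan-neuronal markers (-0.45, edgeR adjusted p = 0.0579), where the median of all genes was 0.16.

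Cacna1h, the T-type channel Cav3.2, peaked in the dentate gyrus group, where Cacna1g was low. It stood there at 73.3 and 68.9 CPM, against averages of 23.6 and 31.1 CPM in the other groups. The next levels were 48.2 CPM (CA1, section 1) and 48.9 CPM (striatum, section 2), so the dentate gyrus group was the highest in both. The difference was 2.69-fold (log2 fold change 1.43 ± 0.12, edgeR adjusted p = 8.32e-13).

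CA1 and the striatum came next for Cacna1h. CA1 had 48.2 and 42.0 CPM, against averages of 25.3 and 32.9 CPM in the others (0.72 ± 0.13, edgeR adjusted p = 7.50e-05), and without section 1 of the group the value was 0.45 (edgeR adjusted p = 0.149). The striatum group had 40.6 and 48.9 CPM, against averages of 25.8 and 32.4 CPM (0.74 ± 0.14, edgeR adjusted p = 0.000251). Without its well-sampled section 2, the 35 spots of section 1 alone gave 0.62 (edgeR adjusted p = 0.716). Against the cortex layers 2 to 4 group, which had 22.8 and 27.2 CPM, the striatum group was higher by 0.86 ± 0.22 (edgeR adjusted p = 0.00870), the only member called, where 2.95% of all genes were called higher. That contrast also fell short without section 2 of the striatum group and without section 1 of cortex layers 2 to 4. The call was lost too without the term for the section and with even-numbered markers only. Its lowest value under any alternative was 0.26.

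The thalamus group had little Cacna1h, 13.0 and 18.1 CPM, against averages of 27.7 and 34.5 CPM in the others (-0.87 ± 0.13, edgeR adjusted p = 3.20e-06). The parvalbumin and GABA group had 29.0 and 33.5 CPM, which was 1.99-fold above the thalamus group (0.99 ± 0.20, edgeR adjusted p = 0.000390). In the choroid plexus group Cacna1h had 7.97 CPM (5 UMIs) and 20.2 CPM (-0.82 ± 0.26, edgeR adjusted p = 0.0231). Cacna1h was at -0.59 without section 1 of that group, where the call was lost, and at -1.61 without section 2 of it. In the fibre tract group it had 12.3 and 20.9 CPM (-0.68 ± 0.15, edgeR adjusted p = 0.000570), and without section 1 of that group -0.48 (edgeR adjusted p = 0.105).

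Within the hippocampal formation, Cacna1h, Cacna1c and Cacna1i separated the dentate gyrus from CA1. In this contrast 2 members were called higher and 1 lower, where 2.81% of all tested genes were called higher and 2.53% lower. Cacna1h was higher in the dentate gyrus by 0.66 ± 0.16 (edgeR adjusted p = 0.00494), and that call was lost without section 1 of the dentate gyrus (0.43, edgeR adjusted p = 0.331) and without section 2 of CA1 (0.36, 0.413). Cacna1c was higher by 0.59 ± 0.17 (edgeR adjusted p = 0.0359), with 55.2 and 65.6 CPM in the dentate gyrus and 33.1 and 45.2 CPM in CA1. That call was lost without any single section of either group, and with DESeq2 in place of edgeR. Both the Cacna1c and the Cacna1h call were lost without the term for the section and with even-numbered markers only.

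Cacna1i ran the other way between these groups. It had 27.4 and 29.3 CPM in the dentate gyrus group and 46.4 and 53.8 CPM in CA1, a log2 fold change of -0.84 ± 0.18 (edgeR adjusted p = 0.00173). The sections did not overlap between the groups, and the call held without either section of the dentate gyrus group but not without the term for the section (edgeR adjusted p = 0.0651).

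Cacna1i, the T-type channel Cav3.3, had no single leading group. Its highest group was cortex layer 5 in section 1 (62.6 CPM) and the parvalbumin and GABA group in section 2 (67.9 CPM), and no neighbouring pair in its order of 16 groups had ranges that did not overlap. The cortex layer 5 group had 62.6 and 51.8 CPM, against averages of 35.9 and 42.5 CPM in the others (0.66 ± 0.12, edgeR adjusted p = 0.000240). Without section 1 of that group the value was 0.30 (edgeR adjusted p = 0.783). The parvalbumin and GABA group had 44.8 and 67.9 CPM, against averages of 37.0 and 41.4 CPM (0.59 ± 0.13, edgeR adjusted p = 0.000964), and without section 2 of that group the value was 0.34 (edgeR adjusted p = 0.349).

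The thalamus group was the lowest for Cacna1i in both sections, at 18.3 and 26.1 CPM, against averages of 38.8 and 44.2 CPM in the others (-0.84 ± 0.12, edgeR adjusted p = 6.49e-07). Set directly against it, the parvalbumin and GABA group was 2.54-fold higher (1.34 ± 0.17, edgeR adjusted p = 1.01e-07). That group is defined by Pvalb, Gad1, Slc32a1, Ecel1 and Six3, genes of inhibitory neurons among them, and carried 2211 and 2001 CPM of summed GABAergic neuron markers, against 534 and 670 CPM in the thalamus group. In the same contrast Cacna1g had 29.0 and 29.4 CPM in the parvalbumin and GABA group and 77.5 and 76.5 CPM in the thalamus group (-1.43 ± 0.16, edgeR adjusted p = 1.85e-08). The T-type genes thus divided between these groups, with Cacna1h and Cacna1i higher in the parvalbumin and GABA group and Cacna1g higher in the thalamus group.

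Between cortical groups no member was called. Cortex layer 5 was set against cortex layers 2 to 4, and cortex layer 6 against cortex layers 2 to 4, in contrasts where 1.11% and 1.83% of all genes were called. The log2 fold changes of the 8 members ran from -0.67 to 0.27 in the first and from -0.52 to 0.27 in the second. Section 2 of the cortex layers 2 to 4 group had 30 spots, and a missed threshold does not show that the levels were equal.

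In the groups poor in neurons the calls depended on the scale. In the fibre tract group all 8 log2 fold changes were below 0, from -0.76 to -0.15. Summed oligodendrocyte markers there were 35346 and 39481 CPM, and the pan-neuronal markers were lower than in the groups named after neuronal regions. Scaled to the pan-neuronal markers, no member was called there, while 7332 of 13105 tested genes were called higher and 66 lower. That scaling moved the median of all genes in that comparison to 0.46. Cacna1c was at 0.03, Cacna1d at 0.27 and Cacna1g at 0.30, each below that median. With total UMIs they were at -0.43, -0.19 and -0.15. The choroid plexus calls of Cacna1b and Cacna1h were also lost with that scaling (edgeR adjusted p = 0.481 and 0.254), where the median of all genes was 0.46. In that comparison 4784 of 13105 genes were called higher and 7 lower. In the meninges group that scaling put the median of all genes at 0.40 and ended all 3 calls (Cacna1b 0.05, Cacna1e -0.13 and Cacna1i -0.02). Of 13105 genes 6675 were called higher there and 14 lower. Cacna1a, Cacna1c, Cacna1d and Cacna1g, not called, also moved above 0 (0.12 to 0.17). Cacna1h, at -0.00 with total UMIs, was called higher (0.41, edgeR adjusted p = 0.0305), a value close to the median of all genes. The part of neuron content in these differences was not tested further.

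**Figure D3:**
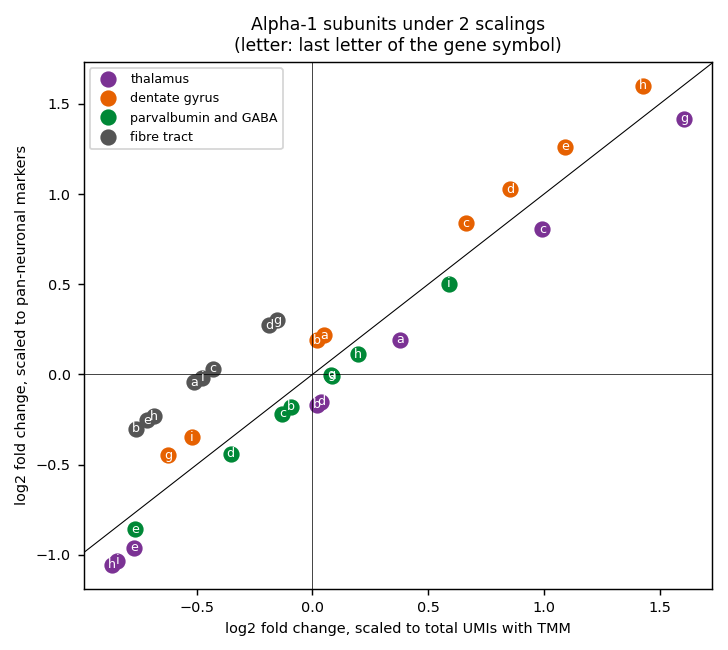
Log2 fold change of each alpha-1 subunit over the mean of the other 15 groups with total-UMI and TMM scaling (horizontal axis) and with scaling to summed pan-neuronal markers (vertical axis) for 4 spot groups, each point marked by the last letter of the gene symbol, with the line of equal values. Cacna1g in the thalamus group (1.60 and 1.42) and Cacna1h in the dentate gyrus group (1.43 and 1.60) stay far from 0 on both axes, while the fibre tract points shift upwards with the median of all genes (0.46) and Cacna1c, Cacna1d and Cacna1g cross 0.

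The members' patterns across the 16 groups overlapped only in part. Of the 28 pairs of members, Cacna1e and Cacna1h were the most alike (Pearson's r 0.74 of log2(CPM + 1), mean of both sections) and Cacna1g and Cacna1h the least alike (-0.33). For Cacna1e the most similar genes outside the family were Psd (r 0.98), Icam5 (0.98) and Gria2 (0.97), the last an AMPA receptor subunit. Those of Cacna1g were Plcb4 (0.86), a phospholipase C, Rims3 (0.83) and Nell1 (0.82). Cacna1b was nearest to Pdap1 (0.95), Ndel1 (0.93) and Pdzd4 (0.92), and Cacna1a to Lztr1 (0.91), Ywhah (0.90) and Serinc1 (0.90). The nearest genes of Cacna1c were Megf9 (0.83), Sptbn1 (0.82) and Galnt17 (0.82), and those of Cacna1d were Zfp280d (0.90), Otud4 (0.88) and Zfp451 (0.87). Cacna1h was nearest to Capn7 (0.89), Lratd1 (0.88) and Asphd2 (0.86), and Cacna1i to Lrrc4c (0.84), Ptprt (0.83) and Dlg2 (0.83). Each was the top of 9560 genes, so high values are partly a product of the search, and the 16 points share sections, depth and composition.

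The channel's accessory genes showed their own regional pattern. Beta subunits (Cacnb) and alpha-2-delta subunits (Cacna2d) help bring alpha-1 subunits to the membrane, and several of the gamma-named genes (Cacng) are better known as partners of AMPA receptors. Of 16 such genes 14 were tested (not Cacng1 and Cacng6), and over the 16 groups 39 of their tests were called higher and 30 lower. Of all 13105 tested genes, 4 to 2238 were called higher in a group and 0 to 1911 lower. The thalamus group had 9 of 14 higher and 2 lower, with a median log2 fold change of 0.39 beside -0.01 over all tested genes, a comparison in which 11.3% of all genes were called higher and 9.71% lower. Cacna2d4 had 15.0 and 10.6 CPM there, against averages of 2.76 and 3.59 CPM in the others (2.18 ± 0.25, edgeR adjusted p = 5.80e-09). Cacng5 had 59.6 and 44.2 CPM, against averages of 16.8 and 19.3 CPM (1.55 ± 0.12, edgeR adjusted p = 5.28e-14). Cacnb2 (0.74) and Cacng7 (0.70) were also called higher and had their highest mean there, as Cacna1c and Cacna1g did.

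**Figure D4:**
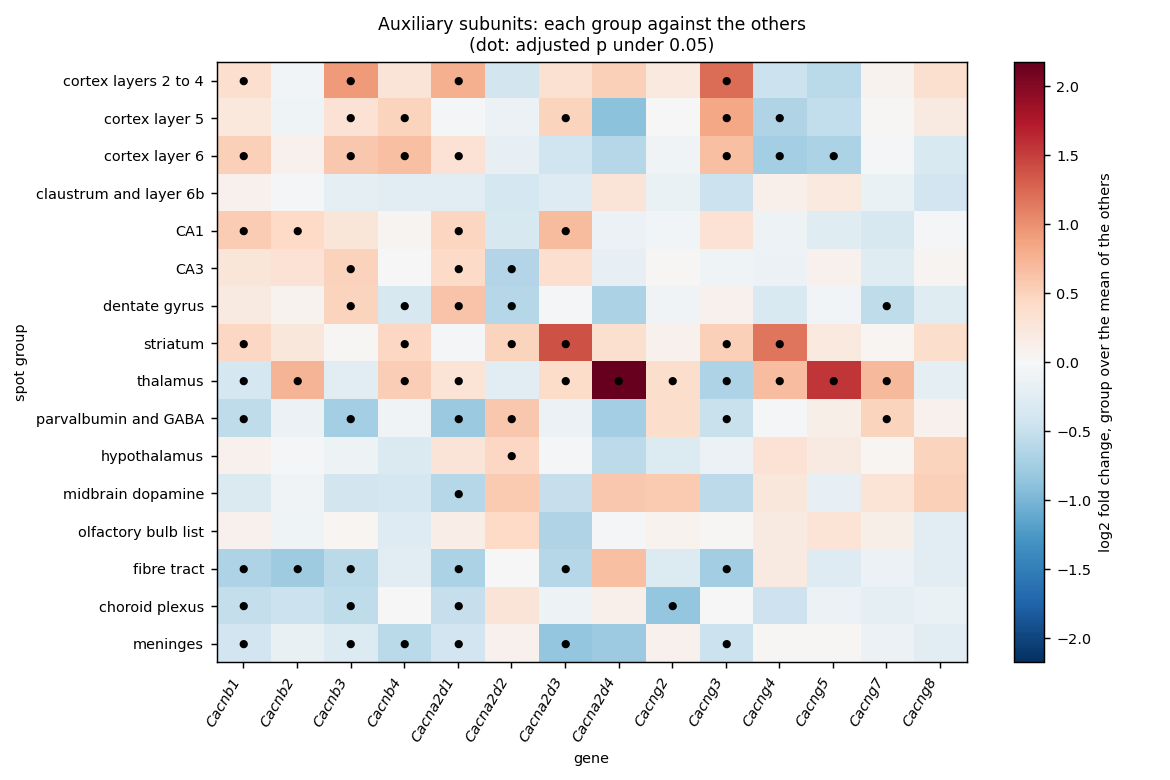
Log2 fold change of the 14 tested auxiliary subunit genes (columns) in each spot group (rows) over the mean of the other 15 groups, from red (higher) to blue (lower), with a dot where the adjusted p was under 0.05. The thalamus row has 11 dots, 9 of them higher, with Cacna2d4 (2.18) at the end of the scale, and Cacna2d3 (1.38) and Cacng4 (1.16) stand out in the striatum row.

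Accessory genes were also called in groups other than the thalamus. In the striatum group 6 of 14 were higher, where 5.16% of all tested genes were, and none was lower. Cacna2d3 led there, with 92.2 and 72.7 CPM, against averages of 29.3 and 30.4 CPM in the others (1.38 ± 0.14, edgeR adjusted p = 1.92e-09). Cacng4 followed at 1.16 ± 0.13. In the cortex layers 2 to 4 group 4 of 14 were higher (8.07% of all genes), led by Cacng3 (178 and 102 CPM, against averages of 67.7 and 72.7 CPM, 1.21 ± 0.13, edgeR adjusted p = 7.44e-09), Cacnb3 (0.93 ± 0.10) and Cacna2d1 (0.77 ± 0.11), the target of gabapentin. Cacna2d1 and Cacnb3 were lower in the parvalbumin and GABA group, by log2 fold changes of -0.80 and -0.74.

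Partners that bind the channels or respond to calcium were measured for all 12 genes listed, with 31 tests called higher and 18 lower. Of all 13105 tested genes, 4 to 2238 were called higher in a group and 0 to 1911 lower. In the dentate gyrus group 3 of 12 were higher and 2 lower, where 11.1% of all genes were higher and 9.17% lower. In CA1 5 of 12 were higher (7.58%), in the striatum group 2 (5.16%), and in the thalamus group 4 were higher (11.3%) and 3 lower (9.71%). Ryanodine receptors (Ryr) release calcium from internal stores. Ryr1 had 18.8 and 20.8 CPM in the dentate gyrus group, against averages of 6.74 and 7.59 CPM in the others (1.53 ± 0.20, edgeR adjusted p = 2.57e-07), and Ryr2 was higher by 1.02 ± 0.11. In the striatum group Ryr1 (1.29 ± 0.23) and Ryr3 (1.12 ± 0.14) were higher, and in CA1 Ryr3 (1.05 ± 0.13). Stac, which encodes an adaptor of L-type channels, was at 7.51 and 7.89 CPM in CA1, against averages of 1.87 and 2.41 CPM in the others (1.97 ± 0.40, edgeR adjusted p = 0.000424). In the thalamus group Rims2, an active zone scaffold, was higher by 0.81 ± 0.08 and the calcium-activated potassium channel Kcnn3 by 1.34 ± 0.20, while Ryr2 was at -0.80 ± 0.12. Another calcium-activated potassium channel, Kcnn2, had its highest mean in the cortex layer 5 group, at 44.1 and 48.2 CPM (0.60 ± 0.13).

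In the spots assigned to no group, 959 in section 1 and 776 in section 2, each member stood at an intermediate level. Cacna1e had 77.1 and 92.4 CPM there, Cacna1a 63.5 and 45.1 CPM, and Cacna1g 29.7 and 32.1 CPM. None was above its highest group or below its lowest.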

How the data were processed

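Visium libraries of 2 mouse brain sections (1 group, replicates 1 and 2) were analysed. The deposited values are raw UMI counts per gene and spot from the authors' Space Ranger runs. The version was 1.2.2 for section 1 and 2.0.1 for section 2 per the file headers. The submitters' processing notes give 2.0.1, with mm10, for each section. No source used here gives the annotation. Gene positions are RefSeq's on GRCm38.p6. Of the barcodes, 1965 occur in both sections, since arrays share spot barcodes.

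Marker UMIs per 10000 were log-transformed and turned to z-scores over all kept spots. A spot joined the list with the highest mean z if it was at least 0.5 and at least 0.25 above the next list. Groups needed 20 spots in each section. No doublet caller was run. Sums per section and group were tested with edgeR 4.0.16 (R 4.3.3; TMM, filterByExpr, a term for the section, quasi-likelihood, 15 residual and 23.63 prior degrees of freedom). The section term serves as the replicate block: both sums of a number come from 1 section. The SE is the fold change divided by the square root of F. Markers assign spots from the same RNA that was tested, so p-values take no account of that choice. Intervals cover counting error only.

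Folds are printed for members called at an adjusted p under 0.05 and changed at least 1.5-fold, with others given as counts, ranges or single values chosen after they were seen. Listed partner genes were named by their largest changes, up to 4 per comparison. Likeness used genes of at least 10 CPM. Members, lists and rules were chosen with earlier results of these data known. In simulated counts of the thalamus comparison (13105 genes), 76% of 1.5-fold and 90% of 2-fold changes were recovered, with 6.21% of calls false. Apart from the changed genes, that simulation gave all groups and sections 1 shared profile, and spots were not assigned by markers. The thalamus sums are among the largest, so these rates do not carry over to the smaller groups or to the real comparisons. Alternatives were DESeq2 1.42.0, other scalings, count filters, spot minimums, margins, odd- or even-numbered markers, no section term and leaving out a section of a group. Computation used Python 3.11.15, numpy 2.4.6, pandas 2.3.3 and scipy 1.17.1.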

Additional observations from a re-analysis of the deposited data

Results flagged for a closer look

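Some counts of these genes lie outside the comparisons. Spots in no group held 6066 UMIs of the 8 members in section 1 and 6130 in section 2. The 137 spots of section 1 with under 500 UMIs held 5. The retinal alpha-1 subunit Cacna1f had 17 UMIs over all spots of both sections, and the skeletal muscle subunit Cacna1s had 84, and neither passed the filter on low counts. Each of these counts is above 3, the limit that a count of 0 allows.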

How the results depend on the processing

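Of 33 member differences past 1.5-fold, none changed direction under any alternative. Of the calls, 25 held with scaling to pan-neuronal markers, 32 with DESeq2, 33 without TMM factors and 24 with even-numbered markers only. With section 1 of the group left out 22 held, and with section 2 left out 27. Without the replicate block (no term for the section) 25 held. Against the other groups 25 were higher: 15 without the replicate block, and 13 to 15 when 1 section of the group was left out. Lower calls were 19: 9 with pan-neuronal scaling, 9 with at least 10 UMIs in every sum (fewer members tested), 9 without the replicate block and 9 to 12 with a section left out. In pairs of groups 6 were higher: 3 with at least 10 UMIs, 2 without the replicate block, 3 with even-numbered markers and 3 in each fit with a section left out. Pairs had 3 lower: 5 with pan-neuronal scaling, 1 with at least 10 UMIs and 3 to 5 with a section left out. Auxiliary subunits had 39 higher and 30 lower: 17 and 14 without the replicate block, 17 to 26 and 5 to 21 with a section left out. Channel partners had 31 higher (16 with at least 10 UMIs, 15 to 22 with a section left out) and 18 lower (11 with DESeq2, pan-neuronal scaling, at least 10 UMIs or even-numbered markers, 8 without the replicate block, 6 to 13 with a section left out). The causes were not tested. With a margin of 0.75 there were 12 groups, and with 40 spots 11, so the lost groups gave no value there.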

Other observations

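Cacna1s, known for excitation-contraction coupling in skeletal muscle, was highest in the choroid plexus group among the groups found in both sections. It had 6 UMIs (9.56 CPM, exact Poisson 95% interval 3.51 to 20.8 CPM) in section 1 and 5 UMIs (4.21 CPM, 1.37 to 9.83 CPM) in section 2. Spots in no group had 0.704 and 0.575 CPM. The gene was too low to be tested.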
